A study of Homo sapiens with 24 samples.

Results

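The genes described are 48 genes of ribosome production and of the nucleotide and polyamine synthesis that feeds it, many of them known targets of the MYC transcription factors. They were taken by symbol, and 48 of 48 listed symbols were found among the 15862 genes of the table. By role, 5 act with RNA polymerase I, 9 in small nucleolar ribonucleoproteins (snoRNPs), 10 in assembly of the small ribosomal subunit and 10 in that of the large one. Another 6 are nucleolar proteins with several roles, 4 make purines, 2 act in pyrimidine and nucleoside triphosphate supply and 2 make polyamines. All 48 passed the expression filter in both fits.

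Ribosomes are built in the nucleolus, where RNA polymerase I copies the ribosomal RNA genes. The precursor RNA is modified at sites chosen by snoRNPs, folded and cut by assembly factors, and packed with ribosomal proteins before the subunits leave for the cytoplasm. MYC and its relative MYCN bind the canonical E-box, CACGTG, near many of these genes, and growing leukaemia cells depend on a steady supply of ribosomes and nucleotides. BET proteins read acetylated histones through bromodomains and help RNA polymerase II leave promoters, so that BET inhibitors are known to lower MYC or MYCN expression in many leukaemia lines.

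Libraries came from established lines of human T-cell acute lymphoblastic leukaemia. LOUCY stands for the early T-cell precursor form and JURKAT for T-cell leukaemia of a later stage, so that each kind is represented by 1 line only. The groups were LOUCY with 250 nM JQ1 (n = 4), LOUCY with 500 nM I-BET151 (n = 4), LOUCY with 0.05% DMSO, the solvent (n = 4), untreated LOUCY (n = 6) and untreated JURKAT (n = 6). JQ1 and I-BET151 are BET bromodomain inhibitors of different chemical scaffolds, and treatment lasted 24 h. Each group was split evenly over 2 experiments, no agent other than those named is given for any group, and the labels give no culture time for untreated cells. Nothing says that the replicates within an experiment were separate cultures, so p-values speak of the spread among the libraries alone, which may in part be technical.

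Levels are the authors' RPKM, read counts scaled for gene length and sequencing depth, so that levels of different genes are compared per length. Library totals ran between 4381134 and 7074198 reads in listed genes, and between 36 reads (NPM3) and 7755 reads (NCL) stood behind a single value of the 48 genes. Differences are on the log2(RPKM + 1) scale from limma, with the Benjamini-Hochberg adjusted p taken over all tested genes and a gene called at an adjusted p under 0.05. The 7 T-cell markers summed to between 795 and 2395 RPKM in every library, and those of other cell types in the table (1 of 3 monocyte, 1 of 3 erythroid, 1 of 3 epithelial and 3 of 3 fibroblast markers) to 1.02 RPKM or less per list. The 3 B-cell markers summed to between 331 and 584 RPKM in untreated LOUCY, against between 11.3 and 22.1 RPKM in JURKAT. In 3 libraries the deviation of genes from their group mean fell more steeply with gene GC content than in the other 21. These were replicate 1 of experiment 2 with I-BET151, replicate 1 of experiment 2 with DMSO and replicate 2 of experiment 2 of untreated LOUCY. Their log2 slopes per 10 points of GC were -0.33, -0.30 and -0.24, against -0.13 to 0.17 in the others. A trend shared by a whole group cannot be seen this way. In bulk RNA, a different number of expressing cells and a different amount of RNA per cell cannot be told apart.

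MYC was near 0 in LOUCY, at 0.0754 ± 0.0637 RPKM, against 184.7 ± 24.7 RPKM in JURKAT (SD, n = 6 each), whereas MYCN stood at 11.47 ± 2.14 RPKM in LOUCY and 0.364 ± 0.112 RPKM in JURKAT. With JQ1 and I-BET151, MYCN averaged 3.19 ± 1.39 and 3.97 ± 0.433 RPKM, against 12.4 ± 1.37 RPKM with DMSO (SD, n = 4 each).

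The summed level of the 48 genes was lower in LOUCY than in JURKAT, and lower with either inhibitor than with DMSO. It was between 2176 and 2409 RPKM with JQ1, between 2107 and 2391 RPKM with I-BET151, and between 2902 and 2978 RPKM with DMSO. The sum was between 2620 and 3220 RPKM in untreated LOUCY, against between 4137 and 5416 RPKM in untreated JURKAT. The ranges with either inhibitor lay wholly below those of DMSO and of untreated LOUCY, and every LOUCY library lay below every JURKAT library. Of the 48 genes, 43 had their highest group mean in JURKAT, and the exceptions were PPAT and NOP58, highest with I-BET151, and PAICS, GAR1 and UTP20, highest with DMSO. The means of PPAT, NOP58, PAICS and GAR1 leaned on replicate 1 of experiment 2 of that group, a library of steep GC trend. With I-BET151, PPAT and NOP58 stood there at 61.4 and 293.5 RPKM, next to 31.2 and 169.5 RPKM. With DMSO, PAICS and GAR1 stood there at 233.2 and 67.4 RPKM, next to 195.2 and 52.1 RPKM. The lowest group mean was that of I-BET151 for 29 genes, of JQ1 for 18 and of JURKAT for 1, PPAT.

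**Figure D1:**
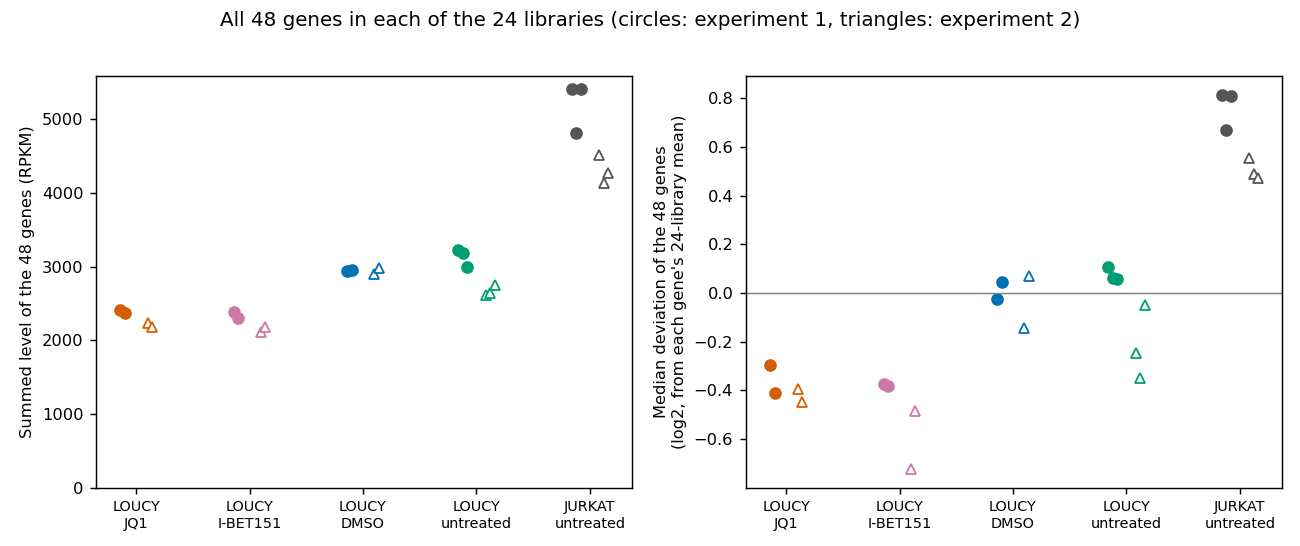
Summed level of the 48 genes in RPKM (left) and their median deviation in log2 units from each gene's mean over all 24 libraries (right), for LOUCY with JQ1, I-BET151 and DMSO and for untreated LOUCY and JURKAT; each point is a library, filled circles for experiment 1 and open triangles for experiment 2. The JQ1 and I-BET151 sums (2107 to 2409 RPKM) lie below those of DMSO (2902 to 2978 RPKM), and JURKAT lies highest (4137 to 5416 RPKM).

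Between the untreated lines, 41 of the 48 genes were called lower in LOUCY and 1, PAICS, higher, while 37.5% of all 11978 tested genes were called lower and 35.5% higher. The median log2 difference of the 48 genes was -0.64, beside -0.02 over all tested genes. For 30 of the 48 every LOUCY library lay below every JURKAT library, which held for 25.4% of tested genes. With JQ1, 24 of the 48 genes fell and 0 rose against DMSO, while 15.9% of all 11411 tested genes were called lower and 10.1% higher. With I-BET151, 28 fell and 0 rose, beside 15.9% lower and 10.3% higher over all tested genes. The medians were -0.33 with JQ1 and -0.42 with I-BET151, beside -0.01 and 0.00 over all tested genes.

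The summed T-cell markers lay between 1003 and 1060 RPKM with JQ1 and between 795 and 1145 RPKM with I-BET151, against between 1556 and 1962 RPKM with DMSO. Most of this sum was CD3D, a subunit of the T-cell receptor complex, which averaged 751.6 ± 30.2 RPKM with JQ1 and 753.0 ± 107.4 RPKM with I-BET151, against 1302 ± 122.2 RPKM with DMSO (SD, n = 4 each). CD3D, CD3E, CD3G and the kinase LCK, 4 of the 7 markers, lay below every DMSO library in every inhibitor library, while CD7 overlapped DMSO and CD2 and CD5 were near 0 in all 3 groups. The B-cell markers lay between 199 and 296 RPKM with JQ1 and between 142 and 304 RPKM with I-BET151, against between 259 and 496 RPKM with DMSO, so that the ranges overlapped. Nearly all of that sum was CD79A, and MS4A1 was near 0. The part of these markers in the falls of the biosynthesis genes was not tested.

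JQ1 and I-BET151 were given at different doses and compared with the same 4 DMSO libraries, so their values stand side by side and were not tested against each other. In all, 22 genes were called with both inhibitors, POLR1C and SRM with JQ1 alone, and CAD, MYBBP1A, NAT10, NCL, NPM1 and POLR1A with I-BET151 alone. Without DMSO replicate 1 of experiment 2, a library of steep GC trend, BOP1 and CAD were called with JQ1 too, and BOP1, FBL, POLR1C and SRM with I-BET151. The I-BET151 calls of NAT10, NCL and NPM1 were lost without that library, while no JQ1 call was lost. With all libraries used, neither inhibitor gave a call for 18 genes, 14 of which were called lower in LOUCY than in JURKAT. With JQ1, every library lay below every DMSO library for 23 of the 48 genes (16.4% of tested genes), and with I-BET151 for 24 (13.1% of tested genes). The size of a gene's difference between the lines said little of its inhibitor difference. Across the 48 genes, Pearson's r between the line and JQ1 differences was -0.13 and Spearman's rho -0.09, and for I-BET151 they were -0.11 and -0.19, with no library shared between the compared differences and genes not independent.

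**Figure D2:**
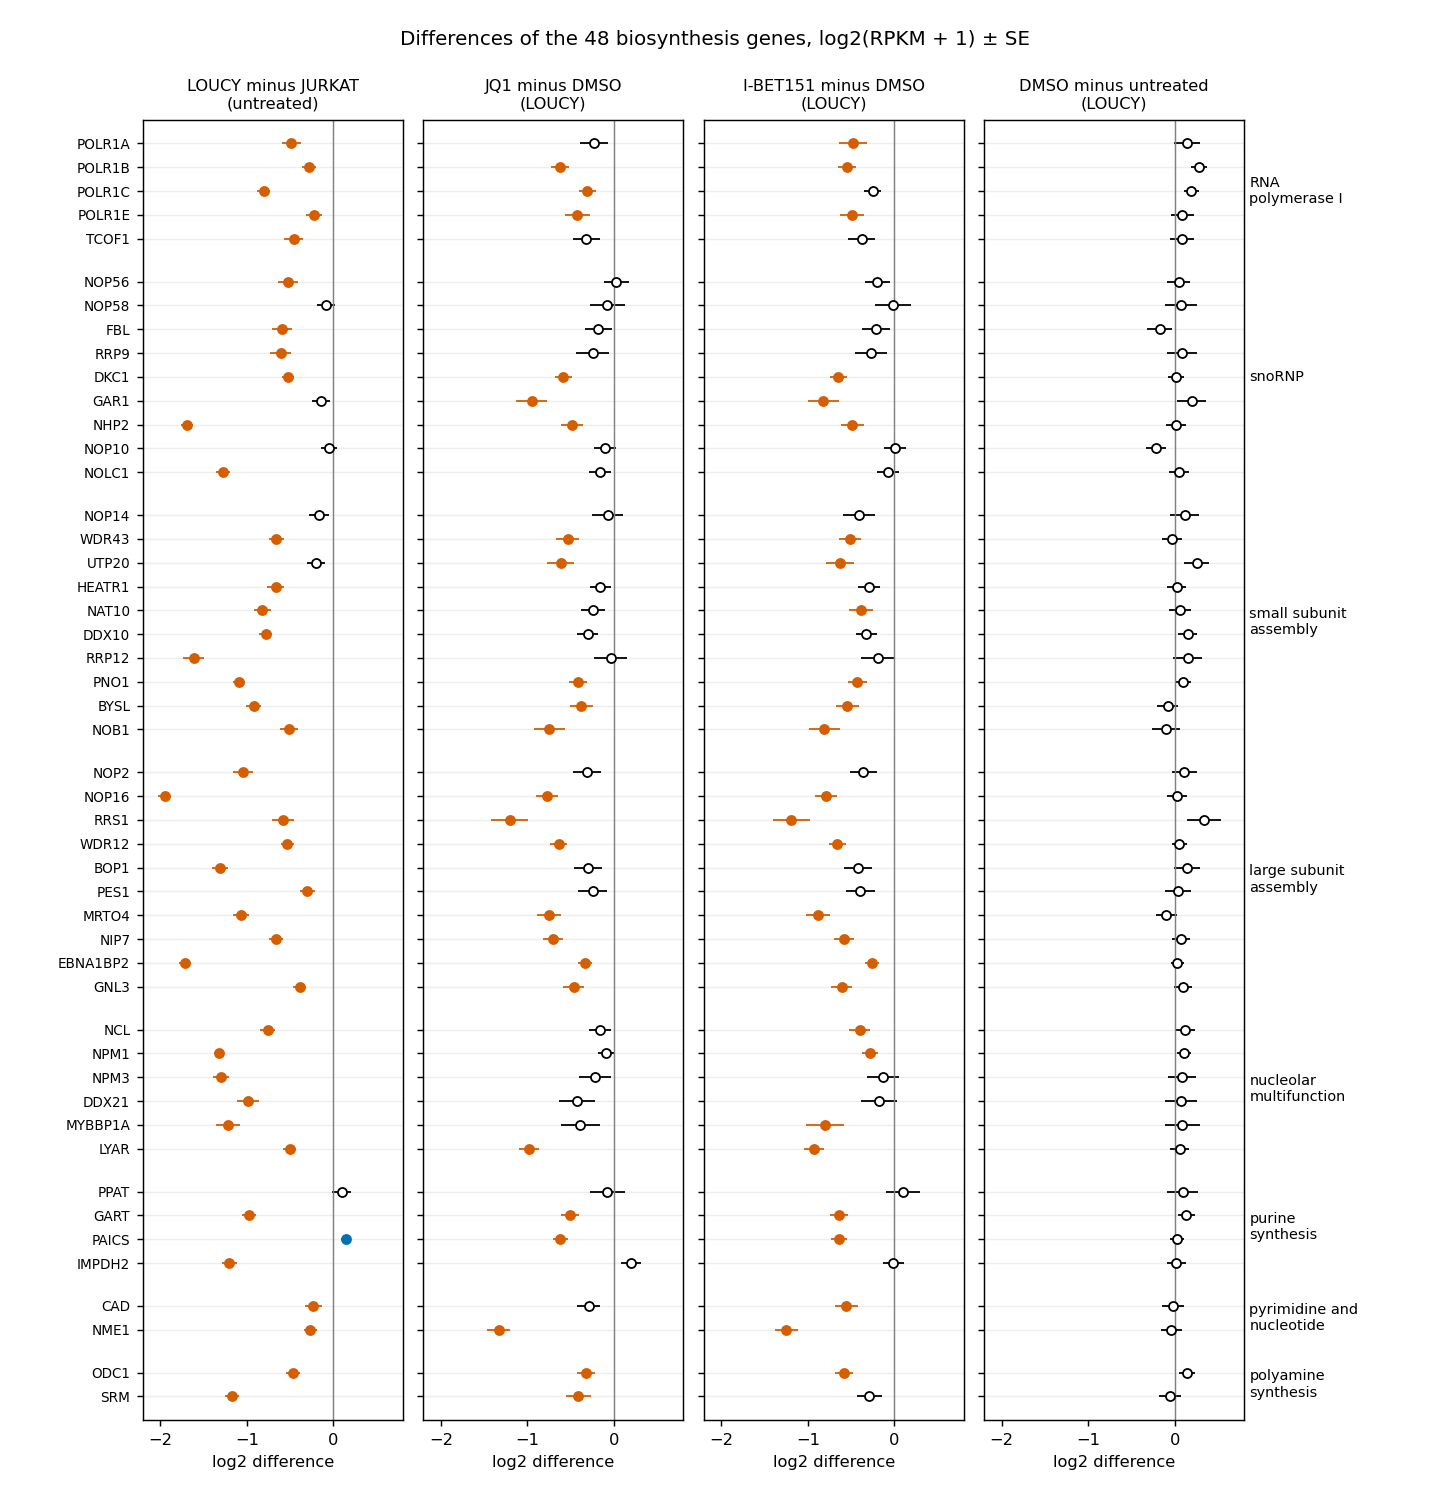
Log2 difference (log2(RPKM + 1) scale, with SE as bars) of each of the 48 genes, grouped by role, for untreated LOUCY minus untreated JURKAT, JQ1 minus DMSO, I-BET151 minus DMSO and DMSO minus untreated in LOUCY; filled orange points are called lower, filled blue higher and open points not called. The largest line difference is that of NOP16 (-1.95), the largest inhibitor differences are those of NME1 (-1.33 and -1.25), and no gene is called for DMSO against untreated cells.

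In both experiments the shifts had the same direction. Median differences of the 48 genes were -0.64 in experiment 1 and -0.63 in experiment 2 between the lines, -0.38 and -0.33 with JQ1, and -0.39 and -0.51 with I-BET151. Tested alone, experiment 1 gave 40, 31 and 26 genes called lower, and experiment 2 gave 35, 3 and 3. Shares over all tested genes are not set beside these counts. These counts alone therefore do not show whether the loss of calls was particular to the 48 genes or general. All calls of the pooled fits had the same sign in both experiments. The interaction of each comparison with the experiment gave 0 calls among the 48 genes (limma), with 3, 0 and 1 genes at an unadjusted p under 0.05 for the lines, JQ1 and I-BET151. Over all tested genes it gave 3 calls of 11978 for the lines and 1 of 11411 for each inhibitor. With so few calls of any gene, 0 calls do not show that the 48 genes agreed between experiments.

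The promoters of these genes often carried the canonical E-box. RefSeq promoter windows on GRCh38.p14, each running from 250 bases before to 50 bases after a start site, were matched for 40 of the 48 genes, in 52 windows. The 8 others are POLR1E, TCOF1, NOP58, NOLC1, RRP12, RRS1, BOP1 and IMPDH2. The letters CACGTG, which read the same on both strands, occurred in 46.2% of these windows and in 7.26% of all 35116 windows. By gene, they occurred in 23 of 40, or 57.5%, beside 12.1% of the 11478 table genes with a window. PPAT and PAICS, whose windows overlap, hold the same CACGTG site, which is counted for each of them. The related letters CATGTG, read on either strand (CACATG on the other), occurred in 3 of the 40 genes (7.5%), beside 10.8% of table genes. A CACGTG match cannot overlap a CATGTG match, whereas CATGTG can overlap its own reverse. The list holds genes chosen as MYC-driven, so a high share is no independent evidence of MYC control.

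E-boxes often began close to the start site. In 20 of the 23 genes one began within 50 bases of a start, and 28.8% of the 52 windows had one beginning in the 50 bases after the start, where 0.883% of all windows did. A match is a description of letters and not a bound site. With JQ1, 13 of 23 genes with CACGTG and 9 of 17 without it fell, and with I-BET151, 14 of 23 and 12 of 17. Between the lines, 17 of 23 and 17 of 17 were lower in LOUCY. These counts were not tested against each other.

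The windows below show genes on which the results turn, with CACGTG in capitals and all other letters in lower case, each read 5′ to 3′ on the gene's own strand. NME1, at chr17:51153309-51153608 on the plus strand, had the largest fall with either inhibitor and carried the motif 34 bases after its start. LYAR, at chr4:4289972-4290271 on the minus strand, ranked next after RRS1 in both and carried it 64 bases before the start site of this window. LYAR and PAICS also have windows without CACGTG, and for these genes the window holding the motif was picked. NOP16, at chr5:176388549-176388848 on the minus strand, had the largest line difference and has no CACGTG in this window. RRP9, at chr3:51941855-51942154 on the minus strand, carried the motif 5 bases before its start and was called with neither inhibitor. PAICS, at chr4:56435502-56435801 on the plus strand, shares most of its window with PPAT, which runs the other way.
NME1: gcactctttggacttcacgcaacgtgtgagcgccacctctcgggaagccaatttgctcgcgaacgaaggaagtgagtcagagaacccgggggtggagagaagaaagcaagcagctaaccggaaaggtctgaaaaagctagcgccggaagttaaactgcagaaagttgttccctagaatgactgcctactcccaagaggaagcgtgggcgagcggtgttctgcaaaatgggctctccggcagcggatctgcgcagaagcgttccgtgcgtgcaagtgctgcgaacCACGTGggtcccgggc
LYAR: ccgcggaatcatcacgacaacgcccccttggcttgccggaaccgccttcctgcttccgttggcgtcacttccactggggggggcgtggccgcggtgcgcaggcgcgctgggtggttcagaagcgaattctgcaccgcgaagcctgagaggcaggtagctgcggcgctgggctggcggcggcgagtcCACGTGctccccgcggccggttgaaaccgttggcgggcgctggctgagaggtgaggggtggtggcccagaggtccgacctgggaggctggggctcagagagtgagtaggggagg
NOP16: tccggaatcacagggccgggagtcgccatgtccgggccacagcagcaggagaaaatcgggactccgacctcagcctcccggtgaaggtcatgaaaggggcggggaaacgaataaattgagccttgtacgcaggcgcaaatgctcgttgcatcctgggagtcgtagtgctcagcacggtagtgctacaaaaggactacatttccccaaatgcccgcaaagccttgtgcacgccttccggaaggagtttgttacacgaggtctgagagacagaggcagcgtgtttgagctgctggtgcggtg
RRP9: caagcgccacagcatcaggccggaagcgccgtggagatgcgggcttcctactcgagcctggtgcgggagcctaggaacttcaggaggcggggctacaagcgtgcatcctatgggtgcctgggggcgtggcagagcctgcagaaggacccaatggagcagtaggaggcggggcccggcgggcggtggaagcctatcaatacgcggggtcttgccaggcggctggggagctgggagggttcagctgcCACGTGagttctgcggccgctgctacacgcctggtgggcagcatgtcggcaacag
PAICS: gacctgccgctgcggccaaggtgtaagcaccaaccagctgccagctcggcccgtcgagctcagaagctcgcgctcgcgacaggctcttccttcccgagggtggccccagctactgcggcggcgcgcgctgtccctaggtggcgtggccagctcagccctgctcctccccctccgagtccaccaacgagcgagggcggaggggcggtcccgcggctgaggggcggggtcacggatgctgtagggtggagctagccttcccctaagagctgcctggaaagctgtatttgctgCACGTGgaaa

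**Figure D3:**
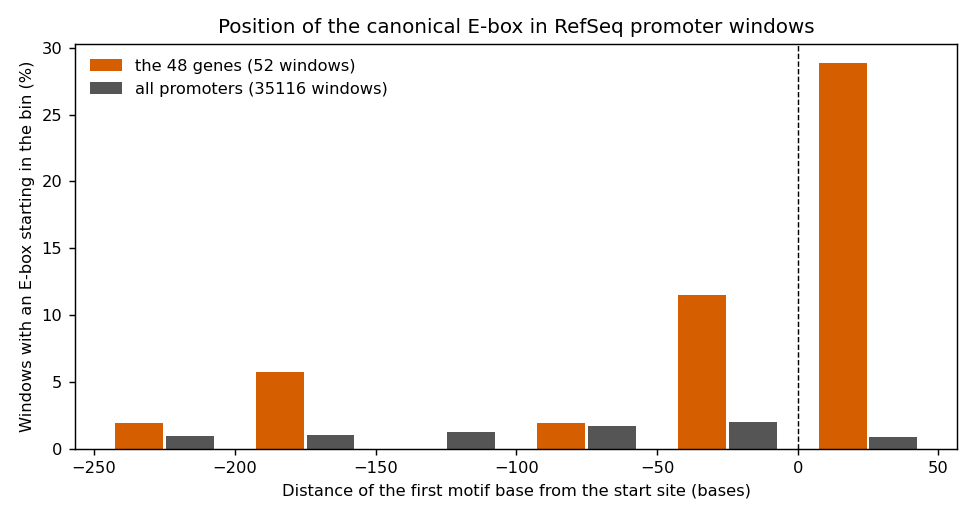
Share of promoter windows, in percent, with a canonical E-box beginning in each 50-base bin, against the distance of its first base from the start site in bases, for the 52 windows of the biosynthesis genes (orange) and all 35116 windows (grey). The bin just after the start holds 28.8% of the windows of these genes and 0.883% of all windows.

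RNA polymerase I genes were lower in LOUCY than in JURKAT for 5 of 5, and 3 of 5 fell with each inhibitor. POLR1C, a subunit shared with RNA polymerase III, stood at 47.00, 43.5, 51.3 and 41.1 RPKM with JQ1, at 45.7, 44.4, 46.3 and 53.2 RPKM with I-BET151 and at 53.2, 61.8, 51.4 and 60.4 RPKM with DMSO, in each case with the 2 libraries of experiment 1 before those of experiment 2. The JQ1 libraries lay just below the DMSO libraries, while I-BET151 and DMSO overlapped. The call with JQ1 (log2 -0.31, SE 0.10, adjusted p = 0.0241) was lost without replicate 2 of either experiment, whether of JQ1 or of DMSO (adjusted p up to 0.0926), and the I-BET151 difference was -0.25 (adjusted p = 0.0584). In untreated LOUCY its lowest, median and highest values were 47.6, 49.96 and 50.6 RPKM, against 72.01, 86.3 and 105.4 RPKM in JURKAT. The lines did not overlap, and the difference was the largest of the 5 genes (log2 -0.81, SE 0.08, adjusted p = 1.67e-07). POLR1C shares 617 exonic bases with genes on the opposite strand.

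POLR1B, the second-largest subunit of the enzyme, averaged 10.2 ± 1.24 RPKM with JQ1 and 10.7 ± 0.846 RPKM with I-BET151, against 16.1 ± 0.278 RPKM with DMSO (SD, n = 4 each), a fall of 0.62 and 0.55 on the log2 scale. It had the largest fall of this role with both. POLR1A, the largest and catalytic subunit, was the lowest of the 48 genes per length, at 2.48 ± 0.532, 1.91 ± 0.374 and 3.06 ± 0.499 RPKM with JQ1, I-BET151 and DMSO, and was called with I-BET151 (adjusted p = 0.0374). That call was lost without any 1 of the DMSO or I-BET151 libraries of experiment 1, DMSO replicate 2 of experiment 2 or I-BET151 replicate 1 of experiment 2, with adjusted p up to 0.0976. TCOF1, or treacle, a cofactor of ribosomal gene transcription, was called with neither when all libraries were used (log2 -0.32 and -0.38). Without the 3 libraries of steep GC trend TCOF1 was called with JQ1 (adjusted p = 0.00646) and with I-BET151 (adjusted p = 0.0279).

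POLR1E, a subunit specific to RNA polymerase I, stood at 16.6, 12.5, 13.4 and 13.5 RPKM with JQ1, at 15.6, 15.5, 9.57 and 13.2 RPKM with I-BET151 and at 18.5, 19.9, 15.7 and 22.5 RPKM with DMSO. JQ1 overlapped DMSO in a single library and I-BET151 in none. Its untreated values had a lowest, median and highest of 14.7, 18.2 and 20.2 RPKM in LOUCY and of 16.8, 21.99 and 25.3 RPKM in JURKAT, and the lines overlapped. The 3 calls were near the threshold (adjusted p = 0.0442 between lines, 0.0335 with JQ1 and 0.0146 with I-BET151). The line call was lost in 9 of 12 fits that left out 1 library, all but those without LOUCY replicate 3 or JURKAT replicates 2 and 3 of experiment 2, with adjusted p up to 0.112. The JQ1 call was lost without replicate 2 of DMSO or JQ1 in experiment 1, or any of either JQ1 library and DMSO replicate 2 in experiment 2 (up to 0.122), and the I-BET151 call without DMSO replicate 2 or I-BET151 replicate 1 of experiment 2 (up to 0.0624).

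Among snoRNP genes, 3 of the 4 core proteins of the box H/ACA particles, which guide pseudouridylation, fell with both inhibitors. The 4 listed proteins of box C/D particles, which mostly guide ribose methylation, were NOP56, NOP58, FBL and RRP9 of the U3 particle. None of these was called with either inhibitor when all libraries were used. The difference between both kinds was not tested. The I-BET151 count for the box C/D proteins changed without DMSO replicate 1 of experiment 2, and the JQ1 count did not. That library, of steep GC trend, was the lowest DMSO library for FBL and RRP9 and the highest for GAR1. Without it FBL, the methyltransferase, was called with I-BET151 (log2 -0.40, adjusted p = 0.0405) and not with JQ1 (log2 -0.36, adjusted p = 0.0651). Without all 3 libraries of steep GC trend FBL was called with JQ1 (log2 -0.38, adjusted p = 0.0144) and with I-BET151 (log2 -0.33, adjusted p = 0.0433), and RRP9 with JQ1 (log2 -0.40, adjusted p = 0.0287). By experiment, the FBL differences were -0.43 with JQ1 and -0.45 with I-BET151 in experiment 1, and 0.07 and 0.02 in experiment 2. In all, 3 of 9 snoRNP genes fell with each inhibitor, and 6 of 9 were lower in LOUCY than in JURKAT. DKC1, the pseudouridine synthase, averaged 39.3 ± 3.70 RPKM with JQ1 and 37.7 ± 5.09 RPKM with I-BET151, against 59.3 ± 2.23 RPKM with DMSO (log2 -0.58 and -0.65). GAR1, a core H/ACA protein, had the largest inhibitor differences of this role. It stood at 22.7, 27.4, 22.4 and 23.3 RPKM with JQ1, at 24.3, 27.2, 37.1 and 19.3 RPKM with I-BET151 and at 52.1, 38.4, 67.4 and 36.4 RPKM with DMSO. All JQ1 libraries were below all DMSO libraries, and 1 I-BET151 library, replicate 1 of experiment 2, reached into the DMSO range. The differences were -0.95 with JQ1 (SE 0.18, adjusted p = 0.000654) and -0.82 with I-BET151 (adjusted p = 0.00242). Untreated GAR1 had a lowest, median and highest of 38.9, 40.3 and 44.6 RPKM in LOUCY and 35.8, 43.6 and 57.1 RPKM in JURKAT, and the lines overlapped (adjusted p = 0.241).

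NHP2, another core H/ACA protein, had 1 of the 4 largest line differences. Its lowest, median and highest values were 102.01, 127.2 and 154.9 RPKM in untreated LOUCY, against 332.4, 412.2 and 517.5 RPKM in JURKAT. The 2 ranges lay far apart, with means of 129.2 ± 21.6 and 420.4 ± 77.3 RPKM (SD, n = 6 each; log2 -1.69, SE 0.07, adjusted p = 1.01e-11). In treated LOUCY it stood at 101.2, 86.2, 92.3 and 89.1 RPKM with JQ1, at 105.3, 90.1, 70.9 and 106.02 RPKM with I-BET151 and at 141.2, 133.2, 102.8 and 143.4 RPKM with DMSO. The lowest DMSO library, replicate 1 of experiment 2, was inside the I-BET151 range and above all JQ1 libraries, and both differences were called (log2 -0.48 and -0.49). NHP2 (GRCh38 chromosome 5, 178149460 to 178153967) shares 414 exonic bases with RMND5B on the opposite strand, and the libraries do not keep strand.

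NOP10, the smallest H/ACA core protein and the most abundant snoRNP transcript per length, had the smallest difference between lines and with I-BET151. It stood at 276.3, 253.4, 252.2 and 241.1 RPKM with JQ1, at 333.01, 276.4, 203.4 and 304.96 RPKM with I-BET151 and at 297.5, 279.4, 225.6 and 300.9 RPKM with DMSO. Its untreated values had a lowest, median and highest of 279.7, 320.9 and 356.96 RPKM in LOUCY and 271.2, 329.5 and 399.7 RPKM in JURKAT. Groups overlapped in all 3 comparisons, with log2 differences of -0.05 between lines, -0.10 with JQ1 and 0.00 with I-BET151. The 95% interval of the JQ1 difference was -0.35 to 0.14 for NOP10 and -1.30 to -0.60 for GAR1, and with I-BET151 -0.24 to 0.25 and -1.17 to -0.47.

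NOP56, a core protein of the box C/D particle, had the smallest JQ1 difference. It stood at 117.7, 106.5, 104.1 and 100.6 RPKM with JQ1, at 117.3, 99.4, 69.7 and 85.6 RPKM with I-BET151 and at 115.7, 115.5, 82.5 and 110.5 RPKM with DMSO. JQ1 and DMSO overlapped, and the lowest I-BET151 and DMSO values were all of experiment 2 (log2 0.03 and -0.20, adjusted p = 0.92 and 0.337). Its partners NOP58, FBL and RRP9, a protein of the U3 particle, had JQ1 differences of -0.08, -0.18 and -0.24 and I-BET151 differences of -0.02, -0.22 and -0.27. The 95% interval of the JQ1 difference was -0.61 to 0.13 for RRP9, which includes the fall of DKC1, and -0.26 to 0.31 for NOP56, which does not. Untreated NOP56 had a lowest, median and highest of 70.6, 115.3 and 132.04 RPKM in LOUCY, against 112.1, 150.6 and 189.9 RPKM in JURKAT. The lines overlapped in their tails and the difference was called (log2 -0.52, adjusted p = 0.000692). NOLC1, a chaperone of both kinds of particle, was lower in LOUCY (log2 -1.28) and called with neither inhibitor.

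**Figure D4:**
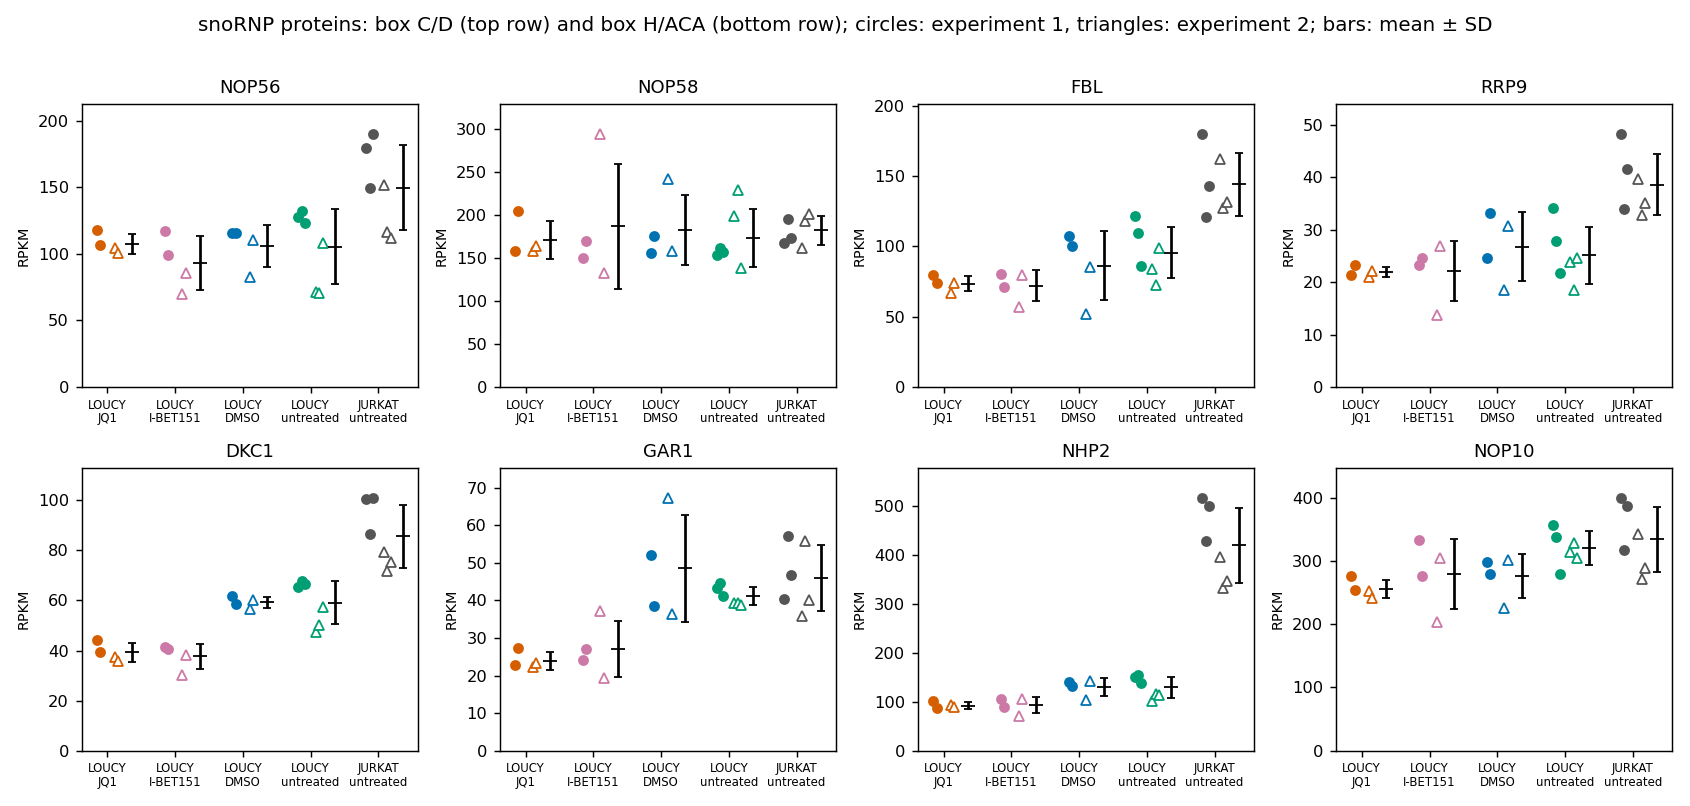
RPKM of the box C/D proteins NOP56, NOP58, FBL and RRP9 (top) and the box H/ACA proteins DKC1, GAR1, NHP2 and NOP10 (bottom) in LOUCY with JQ1, I-BET151 and DMSO and in untreated LOUCY and JURKAT; filled circles are libraries of experiment 1, open triangles of experiment 2, and bars give mean ± SD. DKC1, GAR1 and NHP2 have lower means with both inhibitors than with DMSO, and NHP2 stands far higher in JURKAT (420.4 RPKM) than in untreated LOUCY (129.2 RPKM).

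Small subunit assembly genes were lower in LOUCY than in JURKAT for 8 of 10, and 5 of 10 fell with JQ1 and 6 of 10 with I-BET151. WDR43, a member of the complex that first binds the nascent precursor, stood at 29.96, 30.1, 30.4 and 33.1 RPKM with JQ1, at 29.6, 31.1, 34.9 and 29.7 RPKM with I-BET151 and at 37.1, 39.5, 60.9 and 46.5 RPKM with DMSO. Every inhibitor library was below every DMSO library, and the highest DMSO value was that of replicate 1 of experiment 2. The differences were -0.54 with JQ1 (adjusted p = 0.00437) and -0.52 with I-BET151 (adjusted p = 0.00571). Untreated WDR43 had a lowest, median and highest of 38.3, 46.4 and 55.7 RPKM in LOUCY, against 67.00, 73.96 and 80.3 RPKM in JURKAT, with no overlap (log2 -0.66).

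NOB1, the endonuclease that cuts the end of the small subunit RNA, had the largest inhibitor differences of this role, at 19.1 ± 1.79 RPKM with JQ1 and 18.7 ± 4.61 RPKM with I-BET151, against 33.4 ± 8.13 RPKM with DMSO (log2 -0.75 and -0.81). Its partner PNO1 stood at 23.97, 20.4, 22.9 and 22.7 RPKM with JQ1, at 21.8, 25.7, 18.3 and 23.9 RPKM with I-BET151 and at 29.5, 28.1, 30.1 and 33.7 RPKM with DMSO. No inhibitor library of PNO1 reached the DMSO range (log2 -0.42 and -0.43, adjusted p = 0.00702 and 0.00579). Its untreated values had a lowest, median and highest of 26.3, 28.5 and 30.2 RPKM in LOUCY, against 54.9, 61.2 and 71.2 RPKM in JURKAT, and the lines lay apart (log2 -1.09, SE 0.07, adjusted p = 1.5e-09).

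RRP12, needed for late maturation of the small subunit, had the largest line difference of this role and was called with neither inhibitor. Its lowest, median and highest values were 2.49, 4.96 and 6.90 RPKM in untreated LOUCY, against 12.1, 14.7 and 22.9 RPKM in JURKAT, without overlap (log2 -1.61, SE 0.12, adjusted p = 8.19e-09). Under treatment it stood at 4.48, 5.77, 4.55 and 5.16 RPKM with JQ1, at 4.75, 4.46, 3.35 and 5.03 RPKM with I-BET151 and at 5.55, 6.88, 3.24 and 5.44 RPKM with DMSO. These ranges overlapped (log2 -0.04 and -0.19, adjusted p = 0.91 and 0.486). UTP20, a scaffold of the small subunit processome, ran the other way: it was not called between lines (log2 -0.20) and fell with both inhibitors (log2 -0.62 and -0.63, at 2.99 ± 0.465 and 2.96 ± 0.457 RPKM, against 5.09 ± 0.129 RPKM with DMSO). Untreated LOUCY had UTP20 at 5.90, 5.60 and 4.56 RPKM in experiment 1 and at 3.11, 2.63 and 3.73 RPKM in experiment 2. In experiment 2 this overlapped the values with JQ1 (2.63 and 3.54 RPKM) and I-BET151 (2.33 and 3.43 RPKM). BYSL, another small subunit factor, was called with both inhibitors.

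Some calls of this role hung on single libraries. The JQ1 call of BYSL was lost in 10 of the 18 fits that left out 1 library: any of the 6 DMSO, JQ1 and I-BET151 libraries of experiment 1, untreated LOUCY replicates 2 and 3 of experiment 1, DMSO replicate 2 or JQ1 replicate 1 of experiment 2 (adjusted p up to 0.161). The I-BET151 call of NAT10, the acetyltransferase of ribosomal RNA, was lost in 12 of 18, all but those without JQ1 replicate 1 of either experiment, I-BET151 replicate 2 of experiment 2 or an untreated library of experiment 2 (adjusted p up to 0.126). NOP14, HEATR1 and the helicase DDX10 were called with neither inhibitor, with log2 differences of -0.07, -0.16 and -0.31 with JQ1 and -0.41, -0.29 and -0.32 with I-BET151. HEATR1 shares 2095 of its 9049 exonic bases with LGALS8 and NOP14 shares 605 of 3538 with NOP14-AS1, both on the opposite strand. DDX10 and HEATR1 gained calls when single libraries were left out. Without DMSO replicate 2 of experiment 1 DDX10 was called with both inhibitors (adjusted p = 0.0345 with JQ1 and 0.0267 with I-BET151). The same held without I-BET151 replicate 1 of experiment 2 (0.0461 and 0.0218), and for JQ1 without JQ1 replicate 1 of experiment 1 (0.0440). Without I-BET151 replicate 2 of experiment 2 HEATR1 was called with I-BET151 (adjusted p = 0.0496). Without the 3 libraries of steep GC trend NOP14 and DDX10 were called with I-BET151 (adjusted p = 0.0458 and 0.042). Between the lines HEATR1 (-0.67), DDX10 (-0.78), NAT10 (-0.82), BYSL (-0.92) and NOB1 (-0.51) were lower in LOUCY, and NOP14 was not called (-0.17).

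Large subunit assembly genes were lower in LOUCY for 10 of 10, and 7 of 10 fell with each inhibitor. This was the largest number of any role but not the largest share. Both polyamine genes fell with JQ1, and both genes of pyrimidine and nucleoside triphosphate supply with I-BET151. NOP16, a factor of early large subunit particles, had the largest line difference of all 48 genes. Its lowest, median and highest values were 24.3, 29.3 and 36.1 RPKM in untreated LOUCY, against 91.6, 111.8 and 149.8 RPKM in JURKAT, a mean of 29.6 ± 4.73 beside 118.2 ± 24.96 RPKM (log2 -1.95, SE 0.08, adjusted p = 3.12e-12). The highest LOUCY library was well below the lowest JURKAT library. With treatment NOP16 stood at 16.96, 17.6, 17.6 and 16.2 RPKM with JQ1, at 17.6, 20.7, 12.5 and 17.6 RPKM with I-BET151 and at 30.02, 31.8, 24.3 and 34.03 RPKM with DMSO. All inhibitor libraries lay below all DMSO libraries (log2 -0.77 and -0.79, adjusted p = 0.000183 and 0.000148). NOP16 (GRCh38 chromosome 5, 176383938 to 176388975) shares 227 exonic bases with HIGD2A on the opposite strand.

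EBNA1BP2 and RRS1 are known from yeast as partners in large subunit assembly, and they ranked differently in the comparisons. EBNA1BP2 had the second-largest line difference, with a lowest, median and highest of 52.3, 56.3 and 64.4 RPKM in untreated LOUCY, against 152.3, 189.3 and 228.6 RPKM in JURKAT (log2 -1.71, SE 0.07, adjusted p = 4.52e-12). It stood at 50.1, 49.7, 43.4 and 41.8 RPKM with JQ1, at 56.3, 50.4, 42.6 and 45.9 RPKM with I-BET151 and at 58.4, 63.3, 54.7 and 56.9 RPKM with DMSO. The inhibitor differences were small (-0.33 and -0.26), and 1 I-BET151 library reached into the DMSO range. The I-BET151 call was lost without replicate 2 of experiment 1 of I-BET151 or DMSO, or without DMSO replicate 2 of experiment 2 (adjusted p up to 0.0658). EBNA1BP2 shares 668 exonic bases with CFAP57 on the opposite strand.

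RRS1 stood at 11.1, 5.74, 9.30 and 7.95 RPKM with JQ1, at 10.7, 9.86, 6.06 and 7.61 RPKM with I-BET151 and at 20.9, 20.2, 18.6 and 22.1 RPKM with DMSO. Each inhibitor value was well below the lowest DMSO value, and the differences were the second-largest of the 48 genes with either inhibitor (log2 -1.20, SE 0.21, adjusted p = 0.000379 with JQ1, and log2 -1.19, SE 0.21, adjusted p = 0.000427 with I-BET151). Untreated RRS1 had a lowest, median and highest of 9.77, 17.8 and 22.98 RPKM in LOUCY, against 20.2, 25.2 and 27.5 RPKM in JURKAT. LOUCY spread more widely than JURKAT and the ranges overlapped, and the difference was -0.58 (adjusted p = 0.000663).

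MRTO4, which holds the place of the ribosomal stalk protein during assembly, stood at 14.97, 16.5, 15.5 and 11.7 RPKM with JQ1, at 12.6, 14.5, 12.7 and 13.3 RPKM with I-BET151 and at 26.9, 24.3, 21.7 and 28.3 RPKM with DMSO. The I-BET151 libraries spread little and lay, like those with JQ1, below all DMSO libraries (log2 -0.75 and -0.88, adjusted p = 0.00048 and 0.000119). Its untreated values had a lowest, median and highest of 19.5, 28.2 and 34.6 RPKM in LOUCY, against 41.7, 56.99 and 78.7 RPKM in JURKAT, with no overlap (log2 -1.07).

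GNL3, or nucleostemin, a nucleolar GTPase, was the most abundant of this role per length. It stood at 93.7, 72.3, 79.1 and 79.04 RPKM with JQ1, at 84.7, 80.00, 54.02 and 76.8 RPKM with I-BET151 and at 106.3, 110.6, 104.2 and 126.7 RPKM with DMSO. The inhibitor libraries were all below the DMSO libraries (log2 -0.46 and -0.61, adjusted p = 0.00757 and 0.00095). Untreated GNL3 had a lowest, median and highest of 95.4, 106.1 and 113.2 RPKM in LOUCY, against 116.7, 140.6 and 154.2 RPKM in JURKAT, with the lines close but apart (log2 -0.39).

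PES1, BOP1 and WDR12 form 1 complex of large subunit maturation. WDR12 fell with both inhibitors, at 32.5 ± 0.690 RPKM with JQ1 and 32.01 ± 2.64 RPKM with I-BET151, against 51.5 ± 7.58 RPKM with DMSO. BOP1 and PES1 were called with neither, with log2 differences of -0.30 and -0.24 with JQ1 and -0.42 and -0.39 with I-BET151. In these 2 genes DMSO replicate 1 of experiment 2, a library of steep GC trend, was the lowest DMSO library, and without it BOP1 was called with both (adjusted p = 0.0457 with JQ1 and 0.0121 with I-BET151). Their 95% intervals with I-BET151 (-0.74 to -0.11 and -0.72 to -0.07) included the WDR12 difference (-0.66). BOP1 had the largest line difference of the 3, at -1.31, with WDR12 at -0.53 and PES1 at -0.30. NIP7, an early factor of large subunit assembly, averaged 23.7 ± 2.65 RPKM with JQ1 and 25.8 ± 2.80 RPKM with I-BET151, against 39.2 ± 3.27 RPKM with DMSO, and fell with both (log2 -0.71 and -0.59). NOP2, a methyltransferase of the large subunit RNA, was called with neither when all libraries were used (log2 -0.31 and -0.36). Without the 3 libraries of steep GC trend NOP2 was called with JQ1 (adjusted p = 0.0176). NIP7 and NOP2 were lower in LOUCY than in JURKAT (log2 -0.66 and -1.04), and NIP7 shares 957 exonic bases with COG8 on the opposite strand.

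The nucleolar proteins with several roles were all lower in LOUCY, 6 of 6, while 1 of 6 fell with JQ1 and 4 of 6 with I-BET151. NCL, or nucleolin, was the most abundant of the 48 genes per length, at 307.9, 326.4, 269.4 and 256.04 RPKM with JQ1, at 275.6, 270.8, 209.1 and 225.9 RPKM with I-BET151 and at 314.2, 304.3, 380.3 and 296.4 RPKM with DMSO. JQ1 overlapped DMSO, and I-BET151 lay below it. The I-BET151 call (log2 -0.40, adjusted p = 0.0229) was lost without DMSO replicate 1 of experiment 2, its highest DMSO library (adjusted p = 0.0803), and the JQ1 difference was -0.16. Untreated NCL had a lowest, median and highest of 216.1, 319.2 and 357.7 RPKM in LOUCY, against 462.5, 485.01 and 574.7 RPKM in JURKAT, without overlap (log2 -0.76, SE 0.09, adjusted p = 1.48e-06).

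NPM1, or nucleophosmin, a histone and ribosome chaperone, had the largest line difference of this role. Its lowest, median and highest values were 97.6, 108.6 and 122.2 RPKM in untreated LOUCY, against 246.97, 270.2 and 305.6 RPKM in JURKAT (log2 -1.32, SE 0.06, adjusted p = 1.48e-11). The lines lay far apart. With treatment it stood at 108.2, 113.3, 106.1 and 107.8 RPKM with JQ1, at 98.96, 95.4, 93.8 and 92.8 RPKM with I-BET151 and at 108.3, 108.2, 134.4 and 116.2 RPKM with DMSO. JQ1 overlapped DMSO, and I-BET151 lay below it by a small margin (log2 -0.29, adjusted p = 0.0278), a call lost without I-BET151 replicate 2 of experiment 1 or either DMSO library of experiment 2 (adjusted p up to 0.0864). NPM1 has many processed copies in the genome, so its level is uncertain.

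LYAR, a nucleolar zinc-finger protein linked to cell growth, stood apart from the others of this role under the inhibitors. It stood at 34.8, 34.6, 28.8 and 29.4 RPKM with JQ1, at 35.7, 36.7, 32.5 and 27.7 RPKM with I-BET151 and at 53.3, 66.1, 77.3 and 60.04 RPKM with DMSO. Even the highest inhibitor library was far below the lowest DMSO library (log2 -0.98, SE 0.12, adjusted p = 6.33e-06 with JQ1, and log2 -0.93, SE 0.12, adjusted p = 1.29e-05 with I-BET151). Its untreated values had a lowest, median and highest of 56.9, 61.4 and 65.95 RPKM in LOUCY, against 77.8, 87.2 and 96.5 RPKM in JURKAT, again without overlap (log2 -0.51). MYBBP1A, a regulator of ribosomal gene transcription, averaged 4.63 ± 0.561 RPKM with JQ1 and 3.31 ± 1.10 RPKM with I-BET151, against 6.44 ± 1.33 RPKM with DMSO, and fell with I-BET151 (log2 -0.80). The I-BET151 and DMSO ranges overlapped, with the highest I-BET151 library at 4.85 RPKM and the lowest DMSO library, replicate 1 of experiment 2, at 4.51 RPKM. The helicase DDX21 and the chaperone NPM3 were called with neither inhibitor (log2 -0.43 and -0.22 with JQ1, -0.18 and -0.13 with I-BET151). In DDX21, however, every JQ1 library lay below every DMSO library. Without I-BET151 replicate 1 of experiment 2 DDX21 was called with JQ1 (adjusted p = 0.0461). MYBBP1A, DDX21 and NPM3 were lower in LOUCY than in JURKAT by log2 differences of -1.22, -0.99 and -1.30.

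**Figure D5:**
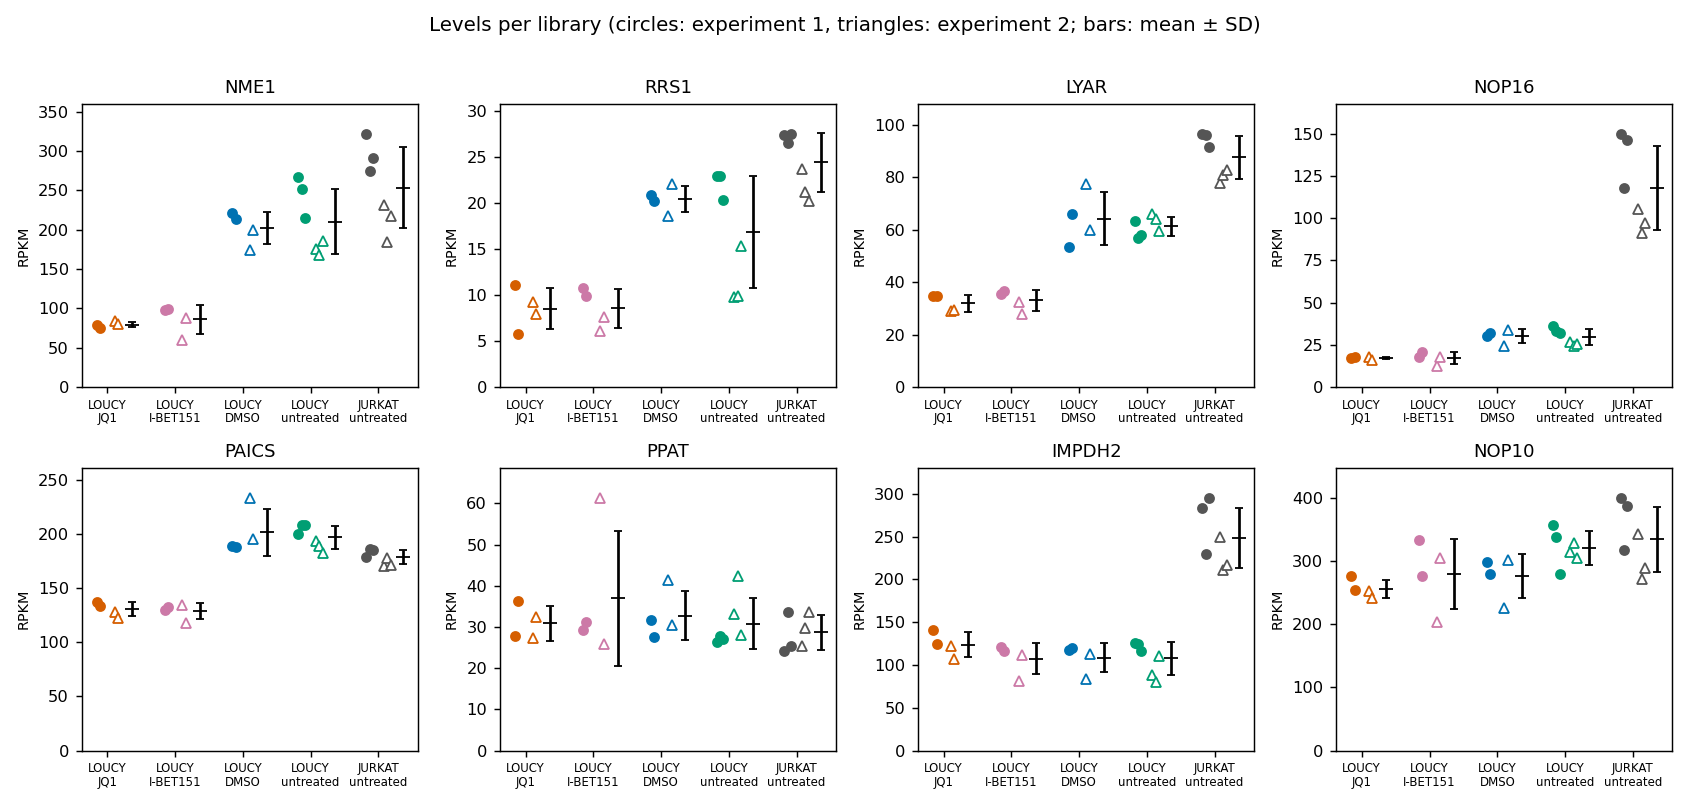
RPKM of 8 genes in LOUCY with JQ1, I-BET151 and DMSO and in untreated LOUCY and JURKAT; filled circles are libraries of experiment 1, open triangles of experiment 2, and bars give mean ± SD (n = 4, 4, 4, 6 and 6). NME1, RRS1, LYAR, NOP16 and PAICS are lower in every inhibitor library than in every DMSO library, while PPAT, IMPDH2 and NOP10 overlap.

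Purine synthesis genes split. PAICS, a bifunctional enzyme of the pathway, was the only one of the 48 genes called higher in LOUCY. Its lowest, median and highest values were 182.1, 196.4 and 208.5 RPKM in untreated LOUCY, against 170.6, 178.2 and 186.4 RPKM in JURKAT. The ranges overlapped a little, and the difference was small (log2 0.14, SE 0.05, adjusted p = 0.0301). The call was lost in each experiment alone and without any 1 of LOUCY replicates 2 and 3 and JURKAT replicates 1 and 3 of experiment 1, LOUCY replicate 1 and JURKAT replicate 3 of experiment 2 (adjusted p up to 0.0693). Under treatment it stood at 137.2, 133.6, 127.96 and 122.3 RPKM with JQ1, at 129.6, 132.5, 134.2 and 118.02 RPKM with I-BET151 and at 188.8, 187.8, 233.2 and 195.2 RPKM with DMSO. All 8 inhibitor libraries lay below all DMSO libraries (log2 -0.62, SE 0.09, adjusted p = 4.03e-05 with JQ1, and log2 -0.64, SE 0.09, adjusted p = 3.26e-05 with I-BET151).

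PPAT, which makes the first committed step of purine synthesis, lies head to head with PAICS on chromosome 4, with start sites at 56435615 and 56435752, 137 bases apart, and their windows share 236 bases. It averaged 30.9 ± 4.25 RPKM with JQ1 and 36.97 ± 16.4 RPKM with I-BET151, against 32.8 ± 5.98 RPKM with DMSO (SD, n = 4 each). The groups overlapped, with 1 I-BET151 library of steep GC trend far above the rest at 61.4 RPKM, and neither difference was called (-0.07 and 0.10; intervals -0.47 to 0.32 and -0.29 to 0.49). For PAICS the intervals were -0.79 to -0.45 and -0.81 to -0.46. GART, a trifunctional enzyme of the pathway, fell with both inhibitors (log2 -0.51 and -0.64) at 23.96 ± 2.72 and 21.8 ± 2.59 RPKM, against 34.4 ± 2.76 RPKM with DMSO, and was lower in LOUCY than in JURKAT (log2 -0.98).

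IMPDH2, the rate-limiting enzyme of guanine nucleotide synthesis, differed between the lines and not detectably with the inhibitors. Its lowest, median and highest values were 80.7, 113.1 and 126.3 RPKM in untreated LOUCY, against 211.5, 239.9 and 295.4 RPKM in JURKAT (log2 -1.20, SE 0.09, adjusted p = 8.26e-09). Under treatment it stood at 141.5, 124.7, 122.7 and 106.99 RPKM with JQ1, at 120.6, 116.5, 81.5 and 111.6 RPKM with I-BET151 and at 117.1, 120.1, 83.5 and 113.4 RPKM with DMSO. The lines lay apart and the treated groups overlapped (log2 0.20 and -0.02, intervals -0.04 to 0.43 and -0.25 to 0.22).

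NME1, a nucleoside diphosphate kinase and a known MYC target, had the largest fall with either inhibitor. It stood at 78.8, 74.9, 83.6 and 80.01 RPKM with JQ1, at 97.6, 99.4, 59.1 and 87.3 RPKM with I-BET151 and at 220.9, 213.3, 173.8 and 200.2 RPKM with DMSO. The inhibitor libraries reached at most 99.4 RPKM, far below the lowest DMSO library, and the means were 79.3 ± 3.61 and 85.9 ± 18.6 RPKM, against 202.03 ± 20.7 RPKM (log2 -1.33, SE 0.13, adjusted p = 5.37e-07 with JQ1, and log2 -1.25, SE 0.13, adjusted p = 1.32e-06 with I-BET151). Untreated NME1 (GRCh38 chromosome 17, 51153536 to 51162428) had a lowest, median and highest of 168.04, 200.2 and 266.7 RPKM in LOUCY, against 184.8, 253.5 and 321.4 RPKM in JURKAT. The lines overlapped over much of their range, and the difference was -0.27 (adjusted p = 0.00589). NME1 is nearly identical in parts to its neighbour NME2, so its level is uncertain.

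CAD, the enzyme of the first steps of pyrimidine synthesis, stood at 13.1, 11.8, 11.4 and 11.7 RPKM with JQ1, at 11.6, 9.87, 8.01 and 10.2 RPKM with I-BET151 and at 15.98, 16.4, 10.97 and 16.98 RPKM with DMSO. Its lowest DMSO library, replicate 1 of experiment 2, lay below all JQ1 libraries and inside the I-BET151 range, and the other DMSO libraries lay above both. It fell with I-BET151 (log2 -0.55, adjusted p = 0.00504) and was not called with JQ1 (log2 -0.29, adjusted p = 0.124). Untreated CAD had a lowest, median and highest of 10.6, 16.2 and 17.5 RPKM in LOUCY, against 14.3, 17.9 and 21.9 RPKM in JURKAT, overlapping. The line difference of -0.23 (adjusted p = 0.0397) was lost in 8 of the 12 fits that left out 1 library, all but those without LOUCY replicates 1 or 3 of experiment 2, JURKAT replicate 2 of experiment 1 or JURKAT replicate 3 of experiment 2 (adjusted p up to 0.0948).

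ODC1, the rate-limiting enzyme of polyamine synthesis and a classical MYC target, stood at 54.2, 57.98, 54.1 and 53.9 RPKM with JQ1, at 48.97, 44.7, 40.2 and 49.3 RPKM with I-BET151 and at 74.96, 71.4, 62.7 and 67.4 RPKM with DMSO. All inhibitor libraries were below all DMSO libraries. The differences were -0.32 with JQ1 (adjusted p = 0.0308) and -0.59 with I-BET151 (adjusted p = 0.000418). The JQ1 call was lost without either JQ1 library of experiment 1, DMSO replicate 1 of experiment 1 or DMSO replicate 2 of experiment 2 (adjusted p up to 0.109). Untreated ODC1 had a lowest, median and highest of 51.1, 61.2 and 77.1 RPKM in LOUCY, against 72.97, 83.6 and 102.2 RPKM in JURKAT, with a small overlap (log2 -0.47). Untreated LOUCY of experiment 2 stood at 54.2, 51.1 and 54.4 RPKM, a range that held both JQ1 values of that experiment.

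SRM, spermidine synthase, stood at 18.9, 19.2, 21.3 and 21.3 RPKM with JQ1, at 21.98, 21.05, 18.9 and 26.7 RPKM with I-BET151 and at 28.6, 30.3, 20.04 and 30.8 RPKM with DMSO. The lowest DMSO library, again replicate 1 of experiment 2, was inside the range of both inhibitors. The JQ1 difference was called (-0.41, adjusted p = 0.0373), a call lost without either JQ1 or DMSO library of experiment 1 or DMSO replicate 2 of experiment 2 (adjusted p up to 0.117), and the I-BET151 difference was not (-0.29, adjusted p = 0.142). Its untreated values had a lowest, median and highest of 23.8, 28.4 and 33.8 RPKM in LOUCY, against 53.3, 61.3 and 83.6 RPKM in JURKAT. The lines lay apart, and the difference was -1.17 (adjusted p = 4.59e-09).

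DMSO against untreated LOUCY gave the background of treatment. None of the 48 genes was called, by limma or by limma voom on recovered reads, beside 0.149% of all tested genes lower and 0.0263% higher, and 2 had an unadjusted p under 0.05, POLR1B and POLR1C. In these 2 every DMSO library lay above every untreated library, which held for 0.622% of tested genes. Differences ranged from -0.22 (NOP10) to 0.34 (RRS1), with a median of 0.07 beside -0.02 over all tested genes, and 1100 of those had an unadjusted p under 0.05. The experiments differed in sign: the median was -0.04 in experiment 1, with 34 of 48 genes below 0, and 0.18 in experiment 2, with 4 of 48 below 0. In the interaction with experiment 7 of the 48 genes had an unadjusted p under 0.05 and 0 were called, beside 1 call over all 11411 tested genes. The share of all tested genes at that unadjusted p is not given. Summed levels with DMSO lay between 2902 and 2978 RPKM over both experiments, against between 2991 and 3220 RPKM in untreated LOUCY of experiment 1 and between 2620 and 2750 RPKM in that of experiment 2.

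Genes of the same pathways outside the 48 were lower in LOUCY for 72 of 136 tested and higher for 15, with a median difference of -0.23. They fell for 37 and rose for 3 of 135 with JQ1 (median -0.22), and fell for 39 and rose for 2 of 135 with I-BET151 (median -0.25). Over all tested genes 37.5% were lower and 35.5% higher in LOUCY, and 15.9% fell with each inhibitor. Other small subunit factors were lower in LOUCY for 32 of 45, led by EMG1 at -1.43, and fell for 13 of 45 with JQ1 and 14 of 45 with I-BET151, with UTP18 at -0.87 and -0.73. Among other large subunit factors, 22 of 45 were lower and 5 higher in LOUCY, led by RSL1D1 at -1.51, and 13 and 10 of 44 fell with JQ1 and I-BET151, led by BRIX1 (-0.95) and NLE1 (-0.87). Other RNA polymerase I factors were lower in LOUCY for 6 of 11 and higher for 2, led by RRN3 at -0.82, and fell for 1 of 11 with each inhibitor, the subunit gene ZNRD1 (-0.76 and -0.70), a share no higher than that over all tested genes. Other nucleotide synthesis genes fell for 6 of 15 with JQ1 and 9 of 15 with I-BET151, led by IMPDH1 (-0.74 and -0.87), the relative of IMPDH2. Between the lines the pyrimidine gene CTPS2 stood out, higher in LOUCY by 2.49 on the log2 scale.

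Other polyamine genes went both ways. With JQ1 3 of 10 rose and 3 fell, and with I-BET151 2 rose and 2 fell. SAT1, which starts polyamine breakdown, rose with JQ1 by 0.61 and was higher in LOUCY by 1.41 on the log2 scale, and OAZ1, the antizyme that inhibits ODC1, rose with I-BET151 by 0.58. Other snoRNP factors fell for 1 of 10 with JQ1 and 3 of 10 with I-BET151, counts too small to set apart from the 15.9% over all tested genes, and SHQ1, which assembles H/ACA particles, had the largest difference between lines (-1.18) and with JQ1 (-0.45). None of the 135 tested was called for DMSO against untreated cells, and 4 had an unadjusted p under 0.05.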

How the data were processed

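RNA of 24 libraries was read by full-length cDNA sequencing primed on poly(A) tails, and pre-amplified, per the labels' protocols, a method without molecular identifiers or strand information. The authors deposited 1 table of RPKM per gene and library. STAR 2.5.1b, featureCounts, Subread 1.4.5-p1, edgeR 3.10.5 and hg38 are named in the submitters' processing notes. Which gene annotation and gene lengths they used is not stated in those notes or the table.

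RPKM steps gave whole reads for 100% of the 15862 genes (tolerance 0.01 reads), with totals of 4381134 to 7074198 per library. No libraries of a group and experiment agreed within sampling noise (chi-square per degree of freedom 1.64 to 46.7). Genes with at least 1 RPKM in at least 4 libraries were tested with limma 3.58.1 (R 4.3.3) on log2(RPKM + 1), which understates changes of low genes, with experiment as a covariate. The untreated lines were fitted together, and the LOUCY groups in another fit of 18 libraries. Adjusted p-values (Benjamini-Hochberg) cover all tested genes, the threshold was 0.05, and intervals are 1.96 SE either side. The scripts were tested on simulated data.

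The 48 genes and all gene lists were chosen with earlier results of these data known. Each gene is accounted for. Values by library are given for the 2 most abundant genes of each role and, per comparison with calls, the 4 largest and the smallest differences. Means are given for the largest difference of each role. PPAT, DKC1, WDR12, BOP1, PES1 and other genes named for a role were added after their values were seen. Gene positions come from the GRCh38 annotation and promoters from RefSeq GRCh38.p14. Of the 48 genes, 14 share exonic bases with another listed gene, 13 on the opposite strand.

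Alternatives were pseudocount 0.1, no filter or 5 RPKM, median centring, no experiment term, a replicate block, each experiment alone, limma voom on the recovered reads, the 2 groups alone, and leaving out each library or the 3 of steep GC trend.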

Additional observations from a re-analysis of the deposited data

Results flagged for a closer look

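Among 125 sets of values (25 named genes in 5 groups), 5 had a library farther from its nearest neighbour than the range of its group would lead one to look for, and chance gives about 1 in 20. In 3 of these the library was DMSO replicate 1 of experiment 2, which also had a steep GC trend. PAICS was highest there, at 233.2 RPKM, with the next DMSO library at 195.2 RPKM. CAD was lowest there, at 10.97 RPKM, next to 15.98 RPKM, and NOP56 was lowest, at 82.52 RPKM, next to 110.5 RPKM. With JQ1, WDR43 was highest in replicate 2 of experiment 2, at 33.06 RPKM beside 30.4 RPKM, and ODC1 in replicate 2 of experiment 1, at 57.98 RPKM beside 54.2 RPKM. The JQ1 values were still below every DMSO value of their gene.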

How the results depend on the processing

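No called gene changed sign under any alternative tried. Genes called lower in LOUCY than in JURKAT numbered between 35 and 43 over all alternatives. PAICS, the 1 gene called higher, was lost, giving 0 genes higher, with no experiment term, with the replicate block, in experiment 1 alone, in experiment 2 alone and with limma voom, and leaving out 1 library gave 0 to 1. In experiment 2 alone, with 2 libraries of each treatment, 3 genes fell with JQ1 and 3 with I-BET151, beside 24 and 28. With the 2 groups alone, 18 fell with I-BET151 and 21 with JQ1, and limma voom gave 16 with JQ1 and 24 with I-BET151. Without the 3 libraries of steep GC trend, 30 and 33 fell. Leaving out 1 library gave 19 to 26 with JQ1 and 23 to 33 with I-BET151. For these alternatives no shares over all tested genes are given, so the counts do not show whether other genes gained or lost calls alike. Replicate numbers were not taken as pairs, since not every same-numbered pair of libraries had deviations correlated above 0.1 (correlations -0.54 to 0.69, the highest for I-BET151 and DMSO in experiment 2). With the replicate block, 39 genes were lower in LOUCY, 22 fell with JQ1 and 27 with I-BET151, and 0 were called for DMSO against untreated cells. Some differences of genes that were not called changed sign. NOP10 between lines became 0.076 in experiment 2 alone and 0.0098 without LOUCY replicate 3 of experiment 1. NOP56 with JQ1 became -0.046 in experiment 1 alone, -0.040 without the libraries of steep GC trend, and -0.033 to -0.016 leaving out 1 library. NOP10 with I-BET151 became -0.065 in experiment 2 alone and -0.073 to -0.0090 leaving out 1 library. RRS1 for DMSO against untreated cells became -0.10 in experiment 1 alone. In that comparison, in which none of the 48 was called, 25 genes changed sign in experiment 1 alone, 13 without DMSO replicate 1 and 14 without DMSO replicate 2 of experiment 2. The causes were not tested. Genes with few reads, such as NPM3 (36 to 198 reads), limit what could be called.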
